A study of Mus musculus with 9 samples.

Results

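The 10 alveolar macrophage identity genes Siglecf, Marco, Mrc1, Chil3, Ear2, Krt79, Fabp1, Pparg, Itgax and Cidec were followed in whole-lung RNA of mice with ventilator-induced lung injury (VILI). They were taken by symbol, through the GENCODE M21 names of the gene IDs, from a table of 27203 gene IDs. Their level was the FPKM (mapped fragments scaled to the length of the transcript and to the size of the library) summed over the rows, 1 per transcript, that the table lists for a gene. All 10 were in the table, in 23 rows, and all 10 passed the filter of a mean of at least 0.1 FPKM that 19378 gene IDs passed. Each of the 9 libraries was made from lung RNA of a separate male C57BL/6 mouse aged 6 to 8 weeks, 3 mice to a group. Under anesthesia, the mice of both VILI groups received mechanical ventilation lasting 4 hours (20 ml/kg per breath, 40 breaths per minute, end-expiratory pressure 0 cm H2O). Their lungs were taken at once in the VILI 0 hours group and after 6 hours of recovery in the other one, VILI 6 hours. Control mice were anesthetized and intubated but breathed without the ventilator. The values came from whole lung, so every cell of the organ contributed to them.

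Alveolar macrophages are the resident phagocytes of the air space. They take up and degrade used surfactant, and their identity is set after birth by granulocyte-macrophage colony-stimulating factor (GM-CSF) and transforming growth factor beta, which act through the nuclear receptor PPAR gamma on genes of lipid uptake and storage. In injured lungs, monocytes and neutrophils enter the same space from the blood, and resident macrophages can be lost or can change their program. In whole-lung RNA, fewer cells of a type and less RNA per cell cannot be told apart.

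Several of the genes are also known from other cells. Siglecf is carried by eosinophils, Mrc1 by interstitial macrophages and lymphatic endothelium, Itgax by dendritic cells, Chil3 by neutrophils and their precursors, Pparg and Cidec by adipocytes, Fabp1 by hepatocytes and Krt79 by keratinocytes of skin appendages. Marker lists of these cells were therefore read in the same libraries and are given beside the genes. For keratinocytes the list was one of suprabasal cells and not of skin appendages.

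In the mouse genome (GRCm38, GENCODE M21), Siglecf is at chr7:43351341-43359531 on the plus strand, Marco at chr1:120474538-120505024 on the minus strand, and Mrc1 at chr2:14229392-14332057 on the plus strand with the microRNA gene Mir511 inside it on the same strand. Chil3 is at chr3:106147554-106167564 on the minus strand. Ear2 is at chr14:44102654-44103534 on the plus strand and overlaps the gene model Gm49101 on the opposite strand. Krt79 is at chr15:101929332-101940324 on the minus strand and Fabp1 at chr6:71199827-71205023 on the plus strand. Pparg is at chr6:115360951-115490399 on the plus strand and overlaps Gm44079 on the opposite strand. Itgax is at chr7:128129547-128150657 on the plus strand and Cidec at chr6:113424634-113435760 on the minus strand. The methods of the study name a directional library kit and the sample records another kit, and whether reads were assigned by strand is not given in the sources used here. Values of Ear2 and Pparg are therefore uncertain where the opposite gene models overlap them.

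Some reads of a member can come from a near-identical relative. Of the 595 stretches of the read length in the longest Ear2 transcript, 61 (10.3%) were also found, letter for letter, in Ear10. The shares were 2.19% for Itgax (with Itgad) and 0.848% for Chil3 (with Chil4), and no stretch was shared for the other 7 genes. Ear10 was at 0.388 FPKM or less, Itgad at 0.269 or less and Chil4 at 0.982 or less in every library, against at least 45.2, 9.81 and 129 FPKM of Ear2, Itgax and Chil3.

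The sequences before the start sites of 6 members are shown because 5 of them were called higher at VILI 0 hours and the sixth, Fabp1, was the one called lower at VILI 6 hours. They are the RefSeq (GRCm38.p6) bases upstream of the first base of the transcript, 5′ to 3′ on the strand of the gene, and stop before any exon annotated by GENCODE M21. They cover chr7:43351091-43351340 for Siglecf, chr2:14229164-14229391 for Mrc1, chr14:44102404-44102653 for Ear2, chr15:101940325-101940574 for Krt79, chr6:113435761-113436010 for Cidec and chr6:71199629-71199826 for Fabp1. Capitals mark matches, on either strand, to the motifs described after the sequences.
Siglecf: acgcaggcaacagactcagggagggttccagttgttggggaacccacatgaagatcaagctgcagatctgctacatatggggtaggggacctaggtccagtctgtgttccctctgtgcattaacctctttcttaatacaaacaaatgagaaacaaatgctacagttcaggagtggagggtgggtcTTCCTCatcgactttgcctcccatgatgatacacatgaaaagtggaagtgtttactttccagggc
Mrc1: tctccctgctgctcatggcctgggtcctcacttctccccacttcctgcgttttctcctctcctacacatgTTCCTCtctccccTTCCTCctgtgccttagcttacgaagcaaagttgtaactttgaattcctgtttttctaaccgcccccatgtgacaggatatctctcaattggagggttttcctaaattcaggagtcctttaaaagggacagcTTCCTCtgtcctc
Ear2: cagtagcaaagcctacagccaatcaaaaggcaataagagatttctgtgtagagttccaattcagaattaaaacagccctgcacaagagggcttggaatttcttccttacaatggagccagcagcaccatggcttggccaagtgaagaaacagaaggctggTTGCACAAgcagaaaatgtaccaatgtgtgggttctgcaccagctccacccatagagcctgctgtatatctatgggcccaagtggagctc
Krt79: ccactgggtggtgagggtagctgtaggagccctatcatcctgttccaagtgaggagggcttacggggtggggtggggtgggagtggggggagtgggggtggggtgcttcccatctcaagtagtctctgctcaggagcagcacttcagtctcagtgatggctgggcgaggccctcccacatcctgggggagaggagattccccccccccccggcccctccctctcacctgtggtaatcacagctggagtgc
Cidec: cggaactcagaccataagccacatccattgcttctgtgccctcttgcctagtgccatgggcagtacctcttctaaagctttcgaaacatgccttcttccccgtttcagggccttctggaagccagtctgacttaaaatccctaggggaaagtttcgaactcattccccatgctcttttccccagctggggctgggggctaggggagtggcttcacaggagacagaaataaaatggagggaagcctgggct
Fabp1: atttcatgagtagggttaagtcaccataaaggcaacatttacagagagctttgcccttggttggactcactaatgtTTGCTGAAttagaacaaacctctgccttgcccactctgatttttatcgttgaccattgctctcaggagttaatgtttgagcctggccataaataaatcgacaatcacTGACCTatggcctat

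Motifs of factors known in these macrophages were searched on both strands in the 250 bases before each RefSeq start, for all 10 members and for all 32851 windows of the genome. The core of the PU.1 (Spi1) site, GAGGAA, was in a window of 5 of 10 members (Siglecf, Marco, Mrc1, Fabp1 and Pparg), and in 23.3% of all windows. Mrc1 held it 3 times, and each time as its reverse complement TTCCTC. The longer form GAGGAAGT, which contains the core, was in no member and in 2.44% of all windows. The half-site AGGTCA, which PPAR gamma and other nuclear receptors bind in pairs, was in 2 members (Fabp1 and Pparg) and in 14.0% of all windows. The C/EBP motif TTGCNNAA was in 4 members (Ear2, Fabp1, Pparg and Cidec) and in 9.56% of windows, and the AP-1 motif TGANTCA in 2 (Itgax and Cidec) and 6.75%. The E-box CACGTG was in no member and in 6.02% of windows, and the TATA box TATAAA, left in lower case, was in 2 (Fabp1 and Pparg) and 12.4%. Pparg has 3 start sites and Cidec 2 in RefSeq, and a match at any of them was counted. The shares over all windows are per single window, so these 2 members had more room for a match. The Cidec matches lie at its second start, and 2 of the Fabp1 matches and its TATA box lie in bases that GENCODE M21 places inside the transcript, so these are not in the lines printed. Of the members shown, Krt79 held no match. A match is a description of the letters and not a bound site.

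The column sums of the 9 libraries ranged from 366360 to 388459 FPKM, and the files used here give no counts, so the error of a value is read from the spread between mice. The P values rest on a spread that the fit estimated over all 9 libraries. The lung markers were in place, with a summed FPKM of 12593 to 15609 for 7 alveolar type 2 genes such as Sftpc. The VILI 6 hours libraries were unlike each other, and replicate 1 was the one most like control. Over 14108 genes its mean Spearman rho was 0.9695 with the control libraries and 0.9308 with the other VILI 6 hours libraries, while replicates 2 and 3 of VILI 6 hours had 0.9475 and 0.9074 with control and 0.9571 and 0.9389 with their own group. Replicate 3 had the lowest values of the 9 libraries with control and, at 0.9423, with VILI 0 hours. Angptl4 and Pdk4 are a lipase inhibitor and a mitochondrial kinase that respond to fatty acids and to fasting. In VILI 6 hours replicate 1 they were at 2.87 and 2.24 FPKM. They were at 43.8 and 19.2 FPKM or more in the other VILI 6 hours libraries and at 6.11 and 2.50 or less in control. Of 11 neutrophil genes, 9 lay above all control libraries in VILI 6 hours replicate 1 (S100a8 at 136 FPKM, 9.94 to 15.0 in control). Ngp and Camp lay within the control range there. The calls of the 10 genes are therefore given with and, where they change, without VILI 6 hours replicate 1.

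By level, Chil3 led the 10 genes with a mean of 237 FPKM over the 9 libraries, followed by Ear2 (63.2), Mrc1 (25.2) and Itgax (12.7). The remaining genes lay between 2.89 FPKM (Fabp1) and 6.93 (Cidec). Cidec, Pparg, Marco, Krt79, Siglecf and Fabp1 overlapped their neighbours in that order when single libraries were compared, while Chil3, Ear2, Mrc1 and Itgax were each separated from the next gene in all 9 libraries. FPKM is a level per length, so these levels can be compared between genes. Together the 10 genes took 234 to 315 FPKM in control, 367 to 443 at the end of ventilation and 247 to 649 after recovery, sums that Chil3 dominated. The 649 FPKM were those of VILI 6 hours replicate 1, and the other VILI 6 hours libraries held 247 and 344 FPKM.

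**Figure D1:**
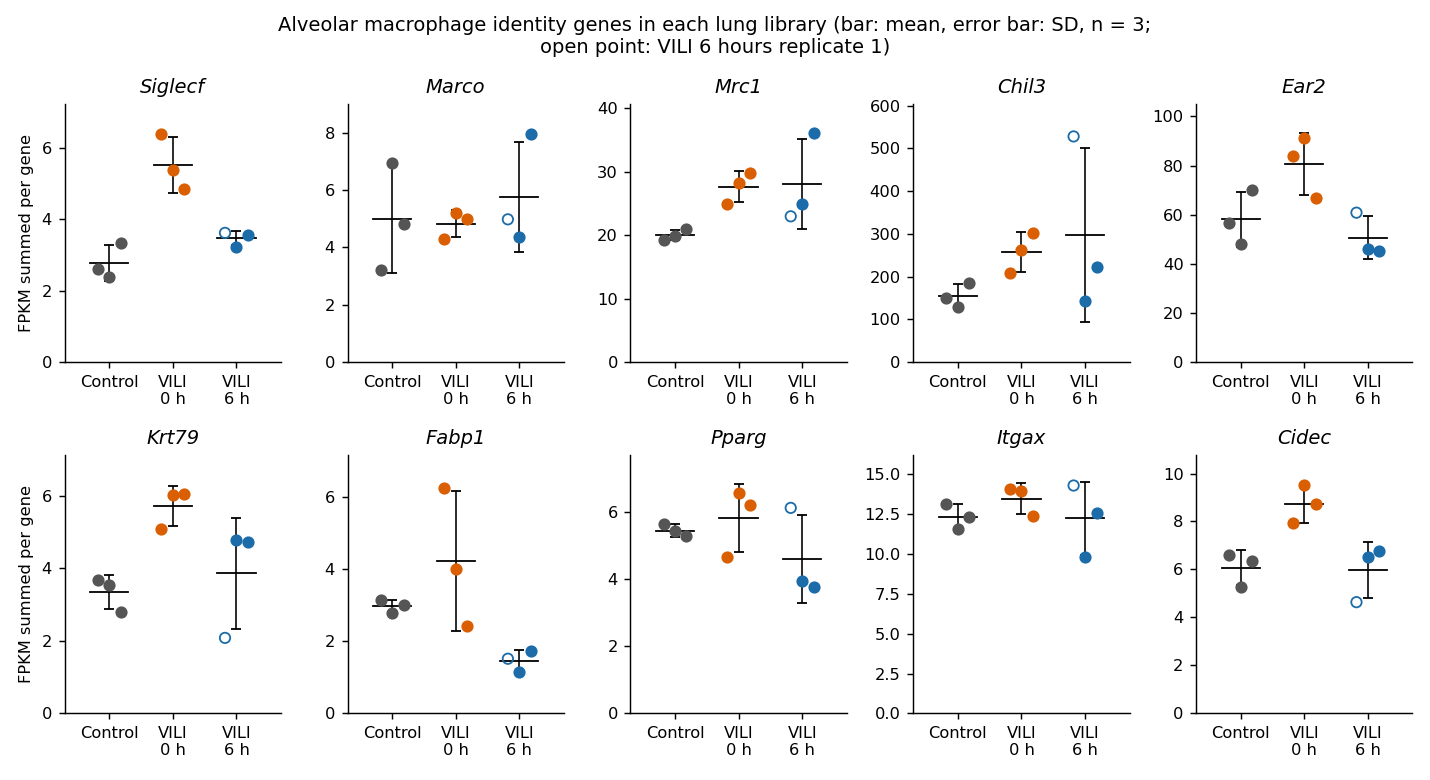
FPKM summed per gene (y axis, from 0) of the 10 genes in the 3 groups (x axis), 1 point for each library, with the mean (bar) and SD (error bar, n = 3) and an open point for VILI 6 hours replicate 1. Siglecf, Krt79 and Cidec are highest in the 3 VILI 0 hours libraries, Fabp1 is lowest in the 3 VILI 6 hours libraries, and Chil3 has its highest point, 528 FPKM, in VILI 6 hours replicate 1.

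The first comparison, VILI 0 hours vs control, describes these genes at the end of ventilation. The groups also differ in ventilation itself, and the paper reports hypoventilation in its control group. Injury cannot be told apart from these. Of the 10 genes, 5 were upregulated at an unadjusted P under 0.05 (Siglecf, Krt79, Cidec, Ear2 and Mrc1) and 0 were downregulated, by limma on log2(FPKM + 0.1). Over all 19378 genes tested, 6.81% were called higher and 9.35% lower by the same rule. The median log2 fold change of the 10 genes was 0.47, with all 10 above 0, beside a median of -0.07 and 40.9% above 0 over all genes. With all 9 libraries none of the 10 passed an adjusted p of 0.05, which 0.284% of all genes (55) did. That count depended on the libraries and ran from 1 (control replicate 3 or VILI 0 hours replicate 2 left out) to 1343 genes (VILI 6 hours replicate 1 left out). Siglecf, Krt79 and Cidec passed without VILI 6 hours replicate 1 (adjusted p = 0.0131, 0.0178 and 0.0414 by limma), where 6.93% of all genes did, and Siglecf passed without VILI 6 hours replicate 3, where 1.27% did. With only the 6 libraries of the comparison, Siglecf, Mrc1, Chil3, Krt79 and Cidec passed, beside 8.24% of all genes. Without VILI 6 hours replicate 1, Chil3 joined the 5 and 6 genes were called higher, where 8.98% of all genes were called higher and 14.2% lower. Without single control or VILI 0 hours libraries, the count fell to as few as 3, without control replicate 1, control replicate 2 or VILI 0 hours replicate 2. In 5 genes (Siglecf, Mrc1, Chil3, Krt79 and Cidec) all VILI 0 hours libraries lay above all control libraries, which held for 12.0% of all genes tested. An exact permutation test of 3 against 3 libraries cannot go below p = 0.1, and these 5 genes reached that value.

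Among the surface receptors, Siglecf, an inhibitory sialic acid-binding lectin and the standard surface marker of mouse alveolar macrophages, was at 2.599, 2.37 and 3.34 FPKM in control, at 6.37, 5.37 and 4.84 in VILI 0 hours and at 3.62, 3.23 and 3.56 in VILI 6 hours. The VILI 0 hours libraries were the highest of the 9, and those of VILI 6 hours overlapped control. Its mean rose from 2.77 ± 0.509 FPKM (SD, n = 3) to 5.53 ± 0.779, a log2 fold change of 0.98 (SE 0.172, adjusted p = 0.0627 by limma). The call held without any single library. This rise came from the sum of 4 rows and reversed in the row with the highest mean alone (-0.26), as described with the transcripts below.

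Mrc1, the mannose receptor CD206, was at 19.2, 19.9 and 20.9 FPKM in control, at 24.9, 28.2 and 29.8 in VILI 0 hours and at 23.0, 24.9 and 36.1 in VILI 6 hours. All 6 VILI libraries were above the 3 control libraries. The log2 fold change at VILI 0 hours was 0.46 (SE 0.161, adjusted p = 0.209 by limma). It was not called when control replicate 1 or VILI 0 hours replicate 3 was left out. Of 10 interstitial macrophage markers, 1 was called higher and 1 lower in the same comparison, with a median of 0.16 on the log2 scale and a summed level of 320 to 362 FPKM in control and 374 to 430 in VILI 0 hours. Cd163, a scavenger receptor for hemoglobin, was highest (1.38, adjusted p = 0.164) and Ms4a7, a membrane protein of macrophages, lowest (-0.84, adjusted p = 0.0991), while the complement genes C1qa, C1qb and C1qc were at 0.12, 0.20 and -0.03 and were not called. Lyve1, a marker of lymphatic endothelium and of perivascular macrophages, had a mean of 91.5 ± 10.3 FPKM in control and 156 ± 50.7 in VILI 0 hours (SD, n = 3) (log2 0.72, adjusted p = 0.404, not called). Of the 5 lymphatic endothelium markers 1, Mmrn1, a protein of these cells, was called higher (0.66, adjusted p = 0.0999), with a median of 0.28. It was at 6.51 to 6.96 FPKM in control and 9.97 to 12.2 in VILI 0 hours, without overlap. The part of these cells in the Mrc1 result was not tested.

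Marco, a scavenger receptor for bacteria and particles, was at 3.22, 6.95 and 4.80 FPKM in control, at 4.29, 5.20 and 4.999 in VILI 0 hours and at 4.98, 4.36 and 7.96 in VILI 6 hours. The 3 groups overlapped, and the log2 fold change at VILI 0 hours was 0.02 (95% interval -0.64 to 0.67, adjusted p = 0.985), with a sign that turned without control replicate 1 (-0.26), VILI 0 hours replicate 2 (-0.038) or VILI 0 hours replicate 3 (-0.011). Itgax, the integrin CD11c, was at 13.1, 11.6 and 12.3 FPKM in control, at 14.1, 14.0 and 12.4 in VILI 0 hours and at 14.3, 9.81 and 12.6 in VILI 6 hours. It had a log2 fold change of 0.12 (95% interval -0.20 to 0.45, adjusted p = 0.710). The 8 dendritic cell markers read beside Itgax took a summed 27.5 to 31.3 FPKM in control and 23.0 to 34.0 in VILI 0 hours, and 0 of them were called higher and 1, Zbtb46, a transcription factor of dendritic cells, lower (log2 -0.40, adjusted p = 0.237 by limma). The lowest of the list, Xcr1, was at -0.98 and was not called.

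Among the secreted proteins, Chil3 (Ym1), a chitinase-like lectin that alveolar macrophages secrete in large amounts, was at 150, 129 and 186 FPKM in control, at 209, 263 and 301.0 in VILI 0 hours and at 528, 142 and 221 in VILI 6 hours. The VILI 0 hours libraries were above all control libraries, while the VILI 6 hours libraries spread from within control to the highest value of the 9. The log2 fold change at VILI 0 hours was 0.74 (SE 0.396, adjusted p = 0.398) and was not called. It was called without VILI 6 hours replicate 1, without VILI 6 hours replicate 2 and with only the 6 libraries of the comparison, since the spread of the VILI 6 hours libraries enters the shared estimate. Neutrophil markers were read beside Chil3. Of the 11 neutrophil genes, 8 were called higher at VILI 0 hours, 6 of them at an adjusted p under 0.05, and their summed level was 121 to 134 FPKM in control, 718 to 1131 at the end of ventilation and 647 to 3002 after recovery. Ngp, a granule gene of immature neutrophils, was at 0.494 to 1.14 FPKM in control, 3.96 to 5.14 in VILI 0 hours and 0.677, 24.7 and 118 in VILI 6 hours. The library with the most Chil3 (528 FPKM) was the VILI 6 hours library with the least Ngp (0.677 FPKM). Of the VILI 6 hours libraries it also had the least S100a8 (136 FPKM) and S100a9 (238 FPKM), and the most Csf3r (36.8 FPKM). The part of neutrophils in the Chil3 values was not tested.

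Ear2, an eosinophil-associated ribonuclease that alveolar macrophages also make, was at 56.5, 47.9 and 70.0 FPKM in control, at 83.9, 91.1 and 66.8 in VILI 0 hours and at 60.8, 46.1 and 45.2 in VILI 6 hours. VILI 0 hours replicate 3 lay below control replicate 3, so these 2 groups overlapped, and the other VILI 0 hours libraries were the highest of the 9. The log2 fold change was 0.48 (SE 0.177, adjusted p = 0.232 by limma). The call was lost when control replicate 1 or 2, or VILI 0 hours replicate 1 or 2, was left out. Control libraries held 13.2, 9.41 and 15.5 FPKM of its close relative Ear1 and VILI 0 hours libraries 32.8, 26.7 and 17.6, without overlap, and Ear1 rose by a log2 of 0.99 (adjusted p = 0.0991). Eosinophils, the other known source of Siglecf and of Ear genes, had markers close to 0. Their granule genes Prg3 and Epx were listed at 0 in all 9 libraries, and the 5 eosinophil markers together took 0.428 to 0.737 FPKM in control and 0.252 to 0.936 in VILI 0 hours.

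Among the genes of lipid handling and structure, Krt79, a type II keratin that marks alveolar macrophages among the cells of the lung, was at 3.68, 3.55 and 2.798 FPKM in control, at 5.09, 6.01 and 6.06 in VILI 0 hours and at 2.08, 4.78 and 4.72 in VILI 6 hours. The VILI 0 hours libraries were again the highest of the 9. The log2 fold change was 0.76 (SE 0.292, adjusted p = 0.245). It was not called when control replicate 3 or VILI 0 hours replicate 2 or 3 was left out. Of 4 suprabasal keratinocyte markers 1 passed the filter, Krt10, and it fell by 1.49 on the log2 scale (adjusted p = 0.0897; 1.20 to 1.49 FPKM in control, 0.331 to 0.540 in VILI 0 hours).

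Cidec, a protein that fuses lipid droplets, was at 6.61, 5.26 and 6.35 FPKM in control, at 7.92, 9.54 and 8.75 in VILI 0 hours and at 4.64, 6.53 and 6.79 in VILI 6 hours. The VILI 0 hours libraries were above all others. The log2 fold change was 0.52 (SE 0.171, adjusted p = 0.190), and the call was lost without control replicate 2 and in the row with the highest mean alone (log2 2.21). Of 7 adipocyte markers 1, Plin4, was called higher (log2 0.87), and Adipoq, the adipocyte hormone, was at 3.81 to 4.99 FPKM in control and 4.86 to 5.64 in VILI 0 hours (log2 0.25, adjusted p = 0.426). The part of fat tissue in the Cidec values was not tested.

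Fabp1, a fatty acid-binding protein known from liver and also made by alveolar macrophages, was at 3.14, 2.795 and 2.99 FPKM in control, at 6.26, 4.004 and 2.42 in VILI 0 hours and at 1.52, 1.15 and 1.73 in VILI 6 hours. The VILI 0 hours libraries spread from below to above control, with a log2 fold change of 0.39 (SE 0.306, adjusted p = 0.565) that became 0.73 and was called without VILI 0 hours replicate 3. Liver markers were close to 0, with 5 hepatocyte genes such as Alb at a summed 0.515 to 0.944 FPKM over the 9 libraries. Pparg, the receptor that drives the lipid program of these cells, was at 5.65, 5.42 and 5.27 FPKM in control, at 4.67, 6.55 and 6.22 in VILI 0 hours and at 6.12, 3.95 and 3.76 in VILI 6 hours. Control and VILI 0 hours overlapped (log2 0.08, 95% interval -0.38 to 0.54, adjusted p = 0.887), and the sign turned without VILI 0 hours replicate 2 (-0.01).

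The second comparison, VILI 6 hours vs control, covers the time after recovery. Of the 10 genes, 1 was called higher (Mrc1) and 1 lower (Fabp1) at P under 0.05, while 8.17% of all genes were called higher and 12.2% lower. Over the 10 genes the median was 0.05 on the log2 scale and 5 values were above 0, beside a median of -0.09 over all genes. At an adjusted p under 0.05 none of the 10 was called with all 9 libraries, against 0.702% of all genes (136). That count was 3 without control replicate 1, 0 without control replicate 2, and 1 without control replicate 3. It rose to 4512 (23.3%) when VILI 6 hours replicate 1 was left out, where Mrc1 (adjusted p = 0.0272) and Krt79 (adjusted p = 0.0498) passed. Mrc1 was above all control libraries in the 3 VILI 6 hours libraries, which held for 9.64% of all genes, and its log2 fold change was 0.46 (SE 0.161, adjusted p = 0.173 by limma). Leaving out control replicate 1 ended that call. Of the 10 interstitial macrophage markers, 3 were called higher in this comparison, namely C1qa (0.40, adjusted p = 0.185), C1qb (0.70, adjusted p = 0.149) and Cd163 (1.12, adjusted p = 0.190), and 1 lower, Ms4a7 (-0.62, adjusted p = 0.151), with 6 of 10 above 0. Their summed level was 345 to 550 FPKM in VILI 6 hours. Of the 5 lymphatic endothelium markers 1 was called higher, Flt4, a receptor for lymphatic growth factors (0.29, adjusted p = 0.234). The part of these cells in the Mrc1 result was not tested. Fabp1 was below all control libraries, which held for 15.0% of all genes, with means of 2.98 ± 0.173 FPKM in control and 1.46 ± 0.293 in VILI 6 hours (SD, n = 3). It fell by 0.99 on the log2 scale (SE 0.306, adjusted p = 0.138), and the call held without any single library.

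The 8 genes that were not called at VILI 6 hours had log2 fold changes between -0.27 (Pparg) and 0.74 (Chil3, SE 0.396, adjusted p = 0.313). Siglecf was at 0.33 (adjusted p = 0.305), Marco at 0.22, Krt79 at 0.12, Itgax at -0.03, Cidec at -0.03 and Ear2 at -0.19, and the 95% interval of the last was -0.59 to 0.21. Several of these values moved with VILI 6 hours replicate 1, in which Chil3 was highest and Krt79 and Cidec were lowest of the 9 libraries. Without it 4 genes were called, Mrc1 (log2 0.58) and Krt79 (0.50) higher and Fabp1 (-1.02) and Pparg (-0.49) lower. The same fit called 12.8% of all genes higher and 26.0% lower. The remaining VILI 6 hours libraries lay above all control libraries in Mrc1 and Krt79, which held for 19.6% of all genes, and below them in Ear2, Fabp1 and Pparg, which held for 37.2%. Chil3 was at 0.21, not called, without that library and at 1.16, called, without VILI 6 hours replicate 2. Siglecf was called without control replicate 3 (0.47).

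The third comparison, VILI 6 hours vs VILI 0 hours, asks how the genes moved between the times. It shares its VILI libraries with the other comparisons. Of the 10 genes, 4 were called lower (Fabp1, Ear2, Siglecf and Cidec) and 0 higher, beside 4.94% of all genes lower and 5.06% higher. The median was -0.45, with 1 of 10, Marco, above 0, against a median of -0.02 over all genes. An adjusted p under 0.05 was reached by 0.00% of all genes (0 of 19378 by limma, with 1938 at an unadjusted P under 0.05), and the lowest adjusted p was 0.115. Alternative fits gave 0 to 2 adjusted calls, and 356 (1.84%) without VILI 6 hours replicate 1, none of them a member. In 5 genes (Siglecf, Ear2, Krt79, Fabp1 and Cidec) all VILI 6 hours libraries lay below all VILI 0 hours libraries, which held for 6.28% of all genes. With VILI 6 hours replicate 1 left out, Pparg joined these 5, and the same held for 21.1% of all genes.

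Fabp1 had the largest fall of the 10, a log2 fold change of -1.38 (SE 0.306, adjusted p = 0.226). Ear2 was at -0.67 (SE 0.177, adjusted p = 0.286), Siglecf at -0.65 (SE 0.172, adjusted p = 0.287) and Cidec at -0.55 (SE 0.171, adjusted p = 0.348), and these 4 calls held without any single library. Of the 7 adipocyte markers, 2 were called lower and 0 higher in the same comparison, with a median of -0.45. Adipoq was at -0.77 (adjusted p = 0.152) and Pck1, an enzyme of glucose and glycerol synthesis, at -2.04 (adjusted p = 0.325), and their part in the Cidec result was not tested. In the row with the highest mean alone Siglecf was at 0.50 and Cidec at -0.85, neither of them called. Krt79, at -0.64 (SE 0.292, adjusted p = 0.509), was not called, although its groups did not overlap. It was called without VILI 6 hours replicate 2 (-0.84) or replicate 3 (-0.83), and was at -0.26, not called, without replicate 1. With VILI 6 hours replicate 1 left out, 6 genes were called lower, adding Pparg (-0.57) and Chil3 (-0.525), where 13.9% of all genes were called lower and 8.55% higher. Pparg was also called without VILI 0 hours replicate 1 (-0.50). Chil3 was at 0.000 with all 9 libraries (95% interval -0.89 to 0.89) and at 0.42, not called, without VILI 6 hours replicate 2. Mrc1 was at -0.005, Itgax at -0.15 and Marco at 0.21 in this comparison, with 95% intervals of -0.37 to 0.36, -0.48 to 0.17 and -0.45 to 0.86.

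**Figure D2:**
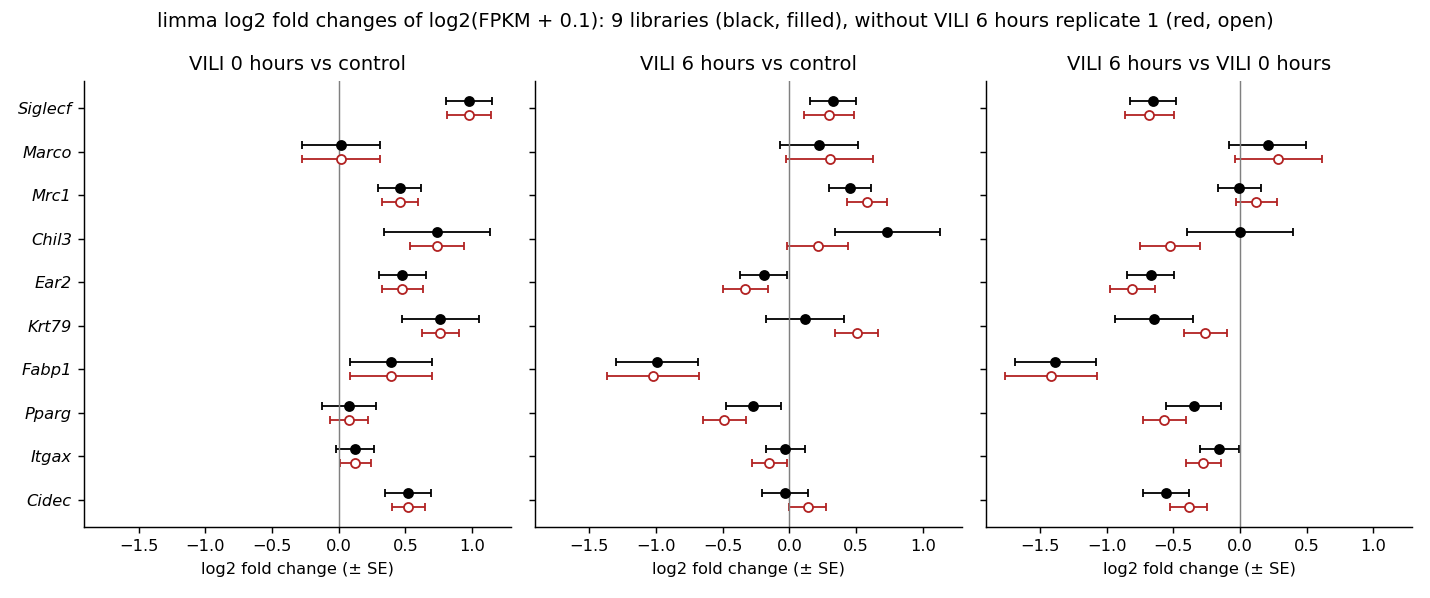
Log2 fold changes with SE (x axis) of the 10 genes (y axis) in the 3 comparisons, with all 9 libraries (filled, black) and without VILI 6 hours replicate 1 (open, red). In the panel of VILI 0 hours vs control all 10 values lie above 0, from 0.02 for Marco to 0.98 for Siglecf, and in the panel of VILI 6 hours vs VILI 0 hours Fabp1, Ear2, Siglecf, Krt79 and Cidec lie furthest below 0 in the fit of all 9 libraries.

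The values of a gene were sums over rows, and the rows shifted where the table lists several. The table gives no transcript IDs, so a row is numbered by its place under its gene. For Siglecf, row 3 was listed at 0 in the 3 control libraries, at 2.58, 3.51 and 3.88 FPKM in those of VILI 0 hours, and at 2.46, 0 and 0 in VILI 6 hours. Row 4, which had the highest mean, was at 0.997, 2.37 and 3.34 FPKM in control, 2.54, 1.86 and 0.946 in VILI 0 hours and 1.15, 3.23 and 3.55 in VILI 6 hours. The higher Siglecf sum at VILI 0 hours was thus made up by row 3, the only row without overlap of these groups. The sum of the rows rests less on how the reads were assigned among transcripts, which was not tested here.

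For Pparg, row 3 was at 2.76, 3.86 and 1.74 FPKM in control, 0.638, 0.709 and 1.38 in VILI 0 hours and 0.985, 1.88 and 0.00949 in VILI 6 hours. Row 4 was at 1.18, 0.840 and 1.61 FPKM in control, 2.35, 3.01 and 2.53 in VILI 0 hours and 1.92, 1.34 and 1.445 in VILI 6 hours. Row 3 was therefore higher in each control library than in any VILI 0 hours library, and row 4 was lower, while the sums of the gene overlapped. In the row of Pparg with the highest mean alone, row 4, the log2 fold change at VILI 0 hours was 1.096 and was called. For Cidec, row 4 was at 3.43, 0 and 4.39 FPKM in control, 3.38, 7.04 and 6.25 in VILI 0 hours and 2.83, 3.19 and 2.71 in VILI 6 hours, and row 2 was at 4.13 FPKM in the control library that lists row 4 at 0. An exact 0 beside a high value in another row of the same gene can come from the assignment of reads, so the values of these rows carry that uncertainty, also where a fit of 1 row is given. Mrc1, Ear2, Krt79 and Fabp1 have 1 row each.

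**Figure D3:**
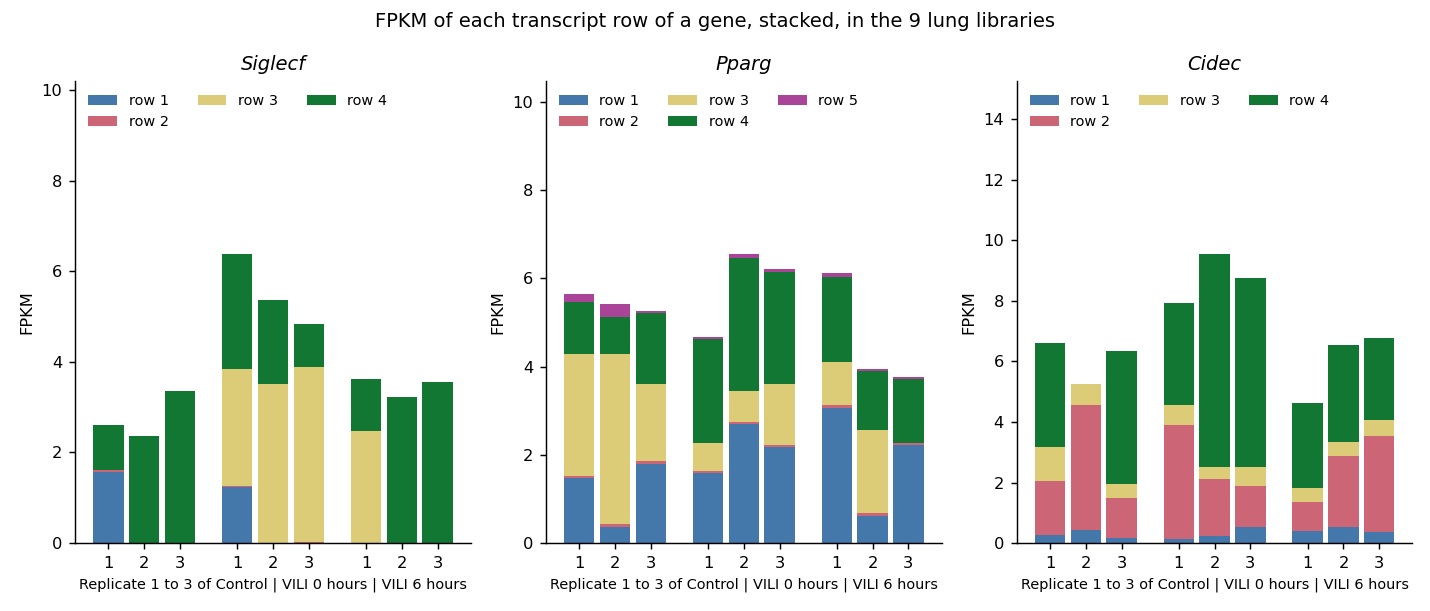
FPKM of each row of Siglecf, Pparg and Cidec (y axis, stacked from 0) in the 9 libraries (x axis, replicates 1 to 3 of each group). Row 3 of Siglecf is 0 in control and 2.58 to 3.88 FPKM in VILI 0 hours, and row 3 of Pparg is 1.74 FPKM or more in control and 1.38 or less in VILI 0 hours.

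The genes were also compared with each other. Of the 45 pairs among the 10 genes, 32 had a Pearson r above 0 over the 9 libraries on the log2 scale, with a median of 0.338. The 4 pairs above 0.7 were Krt79 with Cidec (0.883), Siglecf with Ear2 (0.773), Ear2 with Fabp1 (0.745) and Siglecf with Cidec (0.704). The 9 libraries share their groups, and after each group mean was taken off, 17 of 45 pairs were above 0 with a median of -0.062. These values moved with VILI 6 hours replicate 1: over the other 8 libraries 37 pairs were above 0 (median 0.506) and 12 above 0.7, and 28 were above 0 after the group means were taken off (median 0.138). The genes whose log2 levels over the 9 libraries had the highest mean r with the 10, among 14098 genes of at least 1 FPKM, were Eef1b2 (0.554), Gabarapl2 (0.553), Phax (0.547), Ift43 (0.539) and Cenpq (0.537). For single genes the closest were Rab21 for Siglecf (r = 0.971), Il1rn for Mrc1 (0.986), Snx5 for Ear2 (0.955), Kdm3a for Krt79 (0.971), Ccndbp1 for Cidec (0.973), Pias4 for Pparg (0.980), Dnajc3 for Chil3 (0.953), Tnpo1 for Fabp1 (0.950), Epo for Itgax (0.934) and Gnai3 for Marco (0.846). These are the highest of 14098 values each over 9 libraries and are a description only. Without VILI 6 hours replicate 1 the closest gene was the same for 2 of the 10 members, Marco and Mrc1.

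A second list of 18 further alveolar macrophage genes was read beside the 10. At VILI 0 hours, 8 of 18 were called higher and 0 lower, and their median was 0.35 on the log2 scale. Lpl, the lipoprotein lipase that releases fatty acids from lipoproteins, was highest (1.25, adjusted p = 0.0696 by limma), at 33.6 to 38.9 FPKM in control and 73.3 to 100.4 in VILI 0 hours. Mertk, a receptor for the uptake of dead cells, was at 0.86 (adjusted p = 0.0757), Atp6v0d2, a subunit of a proton pump, at 0.61 (adjusted p = 0.0627), Fabp4, a further fatty acid-binding protein, at 0.66 (adjusted p = 0.148), and Il18, an inflammasome cytokine, at 0.64 (adjusted p = 0.197). The lowest was Fabp5 (-0.19). At VILI 6 hours, 8 were called higher, led by the scavenger receptor Msr1 (1.65, adjusted p = 0.112), and 2 lower, namely Fabp5 (-0.46, adjusted p = 0.228) and Car4, a carbonic anhydrase (-0.26, adjusted p = 0.199), with a median of 0.25. Between the times 4 were called lower and 1 higher, with Ear1 lowest (-1.08, adjusted p = 0.226) and Msr1 highest (1.26, adjusted p = 0.413). Without VILI 6 hours replicate 1 the numbers higher and lower were 9 and 0, 8 and 3, and 1 and 8 in the 3 comparisons, in a fit that called 8.98% of all genes higher and 14.2% lower, 12.8% and 26.0%, and 8.55% and 13.9%. Several of these genes are made by other lung cells too, such as Car4 by capillary endothelium and Krt19 by epithelium. The monocyte markers moved at VILI 6 hours, with 4 of 7 called higher and a summed level of 85.1 to 87.5 FPKM in control and 141 to 216 in VILI 6 hours, and their part in Msr1 was not tested.

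The signals that induce alveolar macrophages were listed as 15 genes of the GM-CSF and transforming growth factor beta pathways and their transcription factors. At VILI 0 hours 3 were called higher and 0 lower, with a median of 0.26, and Csf2rb, the shared receptor chain for GM-CSF, was highest (1.001, adjusted p = 0.108). At VILI 6 hours 8 of 15 were called higher and 0 lower, with a median of 0.63 and all 15 above 0. Spi1, which encodes PU.1, was at 8.53, 7.48 and 7.98 FPKM in control, 12.9, 15.5 and 12.02 in VILI 0 hours and 17.2, 14.3 and 19.2 in VILI 6 hours. The 3 control libraries were the lowest and 2 of the VILI 6 hours libraries the highest. Spi1 rose by a log2 of 0.74 at VILI 0 hours (adjusted p = 0.0661) and by 1.06 at VILI 6 hours (adjusted p = 0.0217), and was the only gene of this list past the adjusted threshold. Csf2, which encodes GM-CSF, was at 1.78 to 2.76 FPKM in control, 1.74 to 3.11 in VILI 0 hours and 4.09, 3.23 and 15.8 in VILI 6 hours (log2 1.30 against control, adjusted p = 0.204). Cebpb rose by 0.97 and 1.18 on the log2 scale (adjusted p = 0.139 and adjusted p = 0.0811), from 38.9 to 41.5 FPKM in control to 67.1 to 124.8 in VILI 6 hours. Tgfb1 was at 0.07 and its receptors Tgfbr1 and Tgfbr2 at 0.08 and 0.27 at VILI 6 hours, of which Tgfbr2 was called (adjusted p = 0.188). PU.1, C/EBP beta and the GM-CSF receptor are also expressed by neutrophils and monocytes, whose markers were higher in the same libraries, and their part in these values was not tested. Without VILI 6 hours replicate 1, 4 and 10 genes of this list were called higher at VILI 0 hours and VILI 6 hours, where the fit called 8.98% and 12.8% of all genes higher.

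Of 13 PPAR gamma and lipid-handling genes, 6 were called higher at VILI 0 hours and 0 lower, with a median of 0.37. Pdk4 was at 1.99 to 2.50 FPKM in control and 15.6 to 30.7 in VILI 0 hours (log2 3.42, adjusted p = 0.0769) and Angptl4 at 3.35 to 6.11 and 33.1 to 47.1 (log2 3.09, adjusted p = 0.141). Cd36, the fatty acid translocase and by level among the 3 highest of the list, was at 249, 310 and 328 FPKM in control, 545, 410 and 436 in VILI 0 hours and 237, 322 and 327 in VILI 6 hours. Its VILI 0 hours libraries were above all others, with log2 fold changes of 0.65 (adjusted p = 0.114) against control and -0.66 (adjusted p = 0.280) between the times. Scd1, a fatty acid desaturase with the highest level of the list, was at 394 to 483 FPKM in control and 272 to 789 in VILI 0 hours (log2 -0.001, SE 0.444). Nr1h3, the oxysterol receptor LXR alpha, was lowest of the list at VILI 0 hours (-0.31, adjusted p = 0.624). At VILI 6 hours 2 were called higher and 2 lower against control, and between the times 3 were called lower and 0 higher. Without VILI 6 hours replicate 1 the VILI 6 hours counts were 6 higher and 4 lower, beside 12.8% and 26.0% of all genes. Cd36, Lpl, Angptl4 and Pdk4 are also expressed by endothelium, muscle and fat cells, which were not separated here.

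Interleukin 4 induces Mrc1 and Chil3 in macrophages, so genes of that response were listed beside them. The list also holds Il4, Il13, Il4ra and Stat6, which belong to the signal itself. Of 9, 7 passed the filter. At VILI 0 hours 0 were called in either direction, with a median of -0.08. At VILI 6 hours 1 was called higher, the receptor Il4ra (1.52, adjusted p = 0.0962), at 22.6 to 25.8 FPKM in control and 32.0, 101.3 and 105 in VILI 6 hours. Retnla, a secreted protein induced by interleukin 4, was at 36.4 to 114 FPKM in control, 41.5 to 49.4 in VILI 0 hours and 184, 47.9 and 72.7 in VILI 6 hours. Retnla did not pass the test in any of the 3 comparisons. The library with the most Retnla was again VILI 6 hours replicate 1, which had the most Chil3. Il4 was at 0.246 FPKM or less and Il13 at 0.0478 or less in every library.

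Near relatives of the members, 30 genes of the same families, were read in the same way. Among the sialic acid-binding lectins, Cd33 was at 4.13, 4.401 and 4.26 FPKM in control, 15.9, 22.7 and 33.4 in VILI 0 hours and 9.83, 27.0 and 24.0 in VILI 6 hours. All VILI libraries were above control, and Cd33 rose by a log2 of 2.40 at VILI 0 hours (adjusted p = 0.0414) and of 2.09 at VILI 6 hours (adjusted p = 0.0431). Siglece, which is carried by neutrophils and monocytes, rose by 1.98 (adjusted p = 0.0627) and 2.51 (adjusted p = 0.0257), and Siglecg, a lectin of B cells, fell by 1.12 at VILI 6 hours (adjusted p = 0.137). Of the integrins, Itgam (CD11b) was at 2.13 to 5.57 FPKM in control, 6.01 to 8.93 in VILI 0 hours and 6.02, 16.7 and 13.4 in VILI 6 hours, with a log2 fold change of 1.47 (adjusted p = 0.123) at VILI 6 hours, where Itgax was at -0.03. The difference between these 2 genes was not tested.

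Of the remaining relatives, Chil1 was at 257 to 385 FPKM over the 9 libraries and did not pass the test in any comparison. Ear6 rose by 1.83 at VILI 0 hours (adjusted p = 0.0892) from 0.0520 to 0.152 FPKM to 0.397 to 1.05. Fabp3 was at -0.73 (adjusted p = 0.329) between the times. Of the PPAR family, Ppard rose by 0.27 and 0.63 against control at VILI 0 hours and VILI 6 hours (adjusted p = 0.306 and adjusted p = 0.0527), while Ppara was at 0.50 and -0.04 and did not pass. Of the 26 relatives tested, 7 were called higher and 1 lower at VILI 0 hours, 7 and 3 at VILI 6 hours, and 2 and 2 between the times. In the fit without VILI 6 hours replicate 1, whose shares over all genes were given with the other alveolar macrophage genes, these were 8 and 1, 9 and 4, and 4 and 5.

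**Figure D4:**
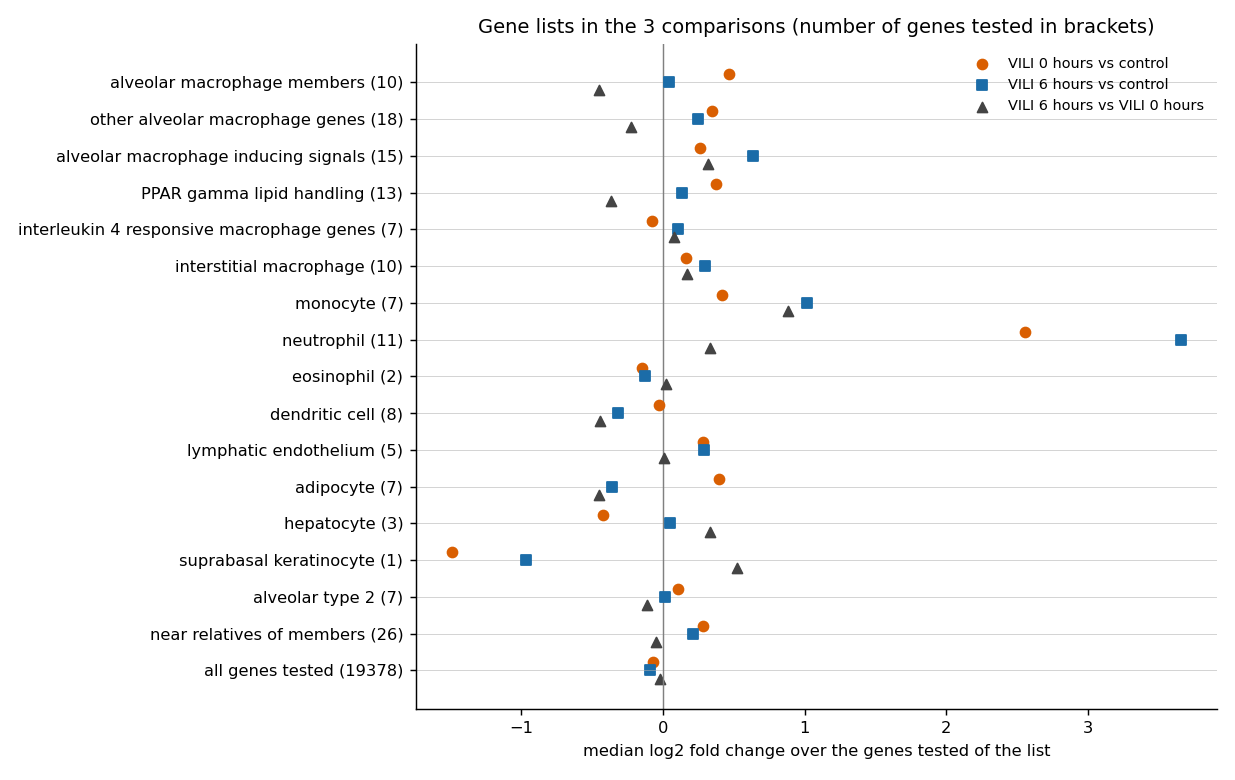
Median log2 fold change (x axis) of each gene list over its genes tested (number in brackets, y axis) in the 3 comparisons, with all genes tested in the last line. The 10 members lie at 0.47, 0.05 and -0.45, neutrophil genes at 2.56, 3.66 and 0.33, and all genes at -0.07, -0.09 and -0.02; lists of 1 to 3 genes carry little weight.

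The scaling of the libraries turned the majority direction among all called genes in both comparisons with control. Centring each library on its median moved all log2 fold changes up by 0.115 at VILI 0 hours and by 0.127 at VILI 6 hours against control, and by 0.012 between the times. The share of higher among all called genes was 42.1% before and 61.2% after centring at VILI 0 hours, 40.1% before and 58.1% after at VILI 6 hours, and 50.6% before and 49.2% after between the times. For the 10 genes, centring brought the calls from 5 to 6 higher at VILI 0 hours, adding Chil3. It brought them from 2 to 4 at VILI 6 hours, where Siglecf (0.45) and Chil3 (0.86) were added as higher, and turned the signs of Itgax (0.10) and Cidec (0.094), which were not called. It left 4 lower between the times. Centring moved the values of all genes up against control, so the added calls are not particular to the 10 genes.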

How the data were processed

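Total lung RNA of 9 mice was sequenced after rRNA depletion. FPKM values per transcript, computed with Cuffdiff, were deposited by the authors after alignment (TopHat) and transcript assembly (Scripture, Cufflinks). The submitters' processing notes name GRCm38, Bowtie2 2.0.6, TopHat2 2.0.9 and Cuffdiff 2.1.1. The sample records and the methods name different library kits and sequencers. FPKM holds no counts, so depth is not known from it, and shifts in a few abundant transcripts can move all other values.

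Groups came from the sample records. Of 23713 Ensembl gene IDs, 23503 matched a GENCODE M21 name. FPKM was summed per gene, and genes with a mean of at least 0.1 over the 9 libraries (19378) were tested on log2(FPKM + 0.1) in 1 fit by limma (version 3.58.1, R 4.3.3) with the group as the factor, a mean-variance trend in eBayes, two-sided tests and Benjamini-Hochberg adjustment over all genes tested. The pseudocount of 0.1 understates fold changes of low genes. The fit was tested on simulated data. Single genes were tested by exact permutation, and no set test was run. Calls used the study's own threshold, an unadjusted P under 0.05.

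The 10 members and the 15 other lists were chosen with earlier results of these data known. The rule for named genes took the members, their relatives, the genes most like the members and, for each list, the highest and lowest log2 fold change, genes past an adjusted p of 0.05 and the 3 highest by mean FPKM. Of the genes from the lists, the text gives a part, those set beside a result of the members. Angptl4, Atp6v0d2, C1qb, C1qc, Camp, Epx, Flt4, Il13, Il18, Il4, Krt19, Mertk, Mmrn1, Prg3, Tgfb1 and Tgfbr1 were named after their values were seen. Alternatives were pseudocounts of 0.01 and 1, a minimum mean of 1 FPKM, fits of only the 6 libraries compared, median-centred libraries, no filter, no trend, a replicate block, the row with the highest mean, and each library left out. Python 3.11.15 was used for the rest.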

Additional observations from a re-analysis of the deposited data

Results flagged for a closer look

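In 4 of the 10 genes the change against control differed between VILI 6 hours and VILI 0 hours at an unadjusted P under 0.05. All 4 were lower, beside 4.94% of all genes lower and 5.06% higher. None of the 4 passed after adjustment over all genes by limma. The control libraries cancel in that difference, which is the comparison of VILI 6 hours vs VILI 0 hours. Fabp1 had the widest gap, -1.38 on the log2 scale (SE 0.306, adjusted p = 0.226 by limma), with 0.39 at VILI 0 hours and -0.99 at VILI 6 hours against control. Ear2 had -0.67 (SE 0.177, adjusted p = 0.286), Siglecf -0.65 (SE 0.172, adjusted p = 0.287) and Cidec -0.55 (SE 0.171, adjusted p = 0.348). In all 4 genes the 3 VILI 6 hours libraries lay below the 3 VILI 0 hours libraries, which held for 6.28% of all genes. The Siglecf value changed sign in the row with the highest mean alone. Groups of 3 libraries are too small for a test of single outlying samples.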

How the results depend on the processing

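Over the 30 log2 fold changes of the 10 genes and 18 alternatives, 484 of 540 values kept their direction and their side of the call threshold, 13 lost a call, 18 gained one and 25 changed sign. For the 11 called values, 183 of 198 kept the call, 13 lost it and 2 changed sign, both of Siglecf in the row with the highest mean (-0.26 at VILI 0 hours vs control, 0.50 between the times). In that row Pparg (0.38) and Cidec (1.37) also changed sign at VILI 6 hours vs control. With median-centred libraries the members called at VILI 6 hours vs control went from 2 to 4. Centring moved all genes up by 0.127 in that comparison. Itgax (0.10) and Cidec (0.094) changed sign in it, and Mrc1 (0.01, 0.007 before rounding) did so between the times. With only the 6 libraries compared, all genes past P 0.05 were 5094 at VILI 0 hours vs control and 1210 between the times, beside 3130 and 1938. With 1 library left out, the members called ranged from 3 to 6 at VILI 0 hours and from 1 to 4 at VILI 6 hours vs control. All genes past P 0.05 ranged from 1979 (without control replicate 2) to 4493, from 2543 (without control replicate 2) to 7526, and from 1407 to 4350 between the times, where each highest value came without VILI 6 hours replicate 1. The log2 fold changes that changed sign ranged at VILI 0 hours from -0.26 to 0.29 (Marco, -0.259 to 0.285) and from -0.01 to 0.23 (Pparg, -0.014 to 0.226). At VILI 6 hours vs control they ranged from -0.052 to 0.49 (Marco), from -0.076 to 0.50 (Krt79), from -0.15 to 0.12 (Itgax) and from -0.13 to 0.14 (Cidec). Between the times they ranged from -0.046 to 0.38 (Marco) and from -0.20 to 0.12 (Mrc1), and Chil3, at 0.000 with all 9 libraries, from -0.525 to 0.422. The causes were not tested.

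The replicate numbers did not pair the samples: the deviations from the group means of same-numbered libraries had r from -0.267 to 0.041. With the replicate block 5, 2 and 4 members were called in the 3 comparisons, the same counts as without it. These calls are at an unadjusted P under 0.05, and the counts of all genes that follow are at an adjusted p. All genes past an adjusted p of 0.05 were 10, 43 and 0 with the block, and 55, 136 and 0 without it. Over the alternatives the adjusted counts ran from 1 to 1597, from 0 to 4512 and from 0 to 356.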
